A study of Arabidopsis thaliana with 43 samples.

Results

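The 100 genes described here are leaf transcripts of Arabidopsis thaliana that stood higher at 38 °C, partway up a slow rise in temperature, than before the rise or at its end. They were chosen by their measured values. In the authors' normalised log2 table the tubes of each plate were averaged, and within each batch a score was formed as the level at T2 (38 °C) minus the highest of the levels at T1 (22 °C), T3 and T4 (both 45 °C). A gene took the lower score of the 2 batches, a level of at least 3 at T2 was required in both batches, and 3 named loci were left out by the rule. Of 18864 loci in the table, 9214 reached that level at T2, and the 100 with the highest scores became the members. All 100 were found in the RefSeq annotation of TAIR10.1, where 98 are protein coding, AOP2 is a transcribed pseudogene and MUG1 a pseudogene.

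The plants were Col-0 seedlings without any transgene or mutation named in the labels, grown on plates of about 80. Each time point is the leaf tissue of 2 plates, 1 per batch, and a plate was shared out over tubes that were sequenced separately, so the plate is the replicate (n = 2) and the 43 libraries stand for 22 plates. On day 12, T1 was harvested at dawn at 22 °C, T2 after 3 h at 38 °C, T3 after 6 h as the chamber reached 45 °C, and T4 at 7.5 h, when the plants had been at 45 °C for 90 min. Plants that went through this ramp are called acclimated; they were harvested again at 22 °C on day 14 (T5) and day 16 (T6), both 7.5 h after dawn. A heat shock of 90 min at 45 °C followed on day 16, and T7 is its end in acclimated plants, 9 h after dawn. T8 is the acclimated plants on day 18, at 22 °C. Plants that had never been heated were harvested before the shock on day 16 (T9, 22 °C, 7.5 h after dawn), at its end (T10, 45 °C, 9 h) and on day 18 (T11, 22 °C, 7.5 h). The protocol text gives conflicting roles for T7 to T9, and the roles here follow the sampling temperature of each label. No unheated plate of the T2 hour was analysed here, so at T2 the temperature and the time since dawn cannot be told apart. In leaf RNA as a whole, fewer cells of a type and less RNA per cell cannot be told apart either.

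When the air warms, plant cells first make heat shock proteins through the heat stress transcription factors, and in the same hours hormone pathways such as auxin, brassinosteroid and jasmonate signalling shift growth and defence. Glucosinolates, a large group among the members, are sulphur-rich defence compounds of the cabbage order. They are built from amino acids in a fixed chain of steps (elongation of the side chain, formation of the core by cytochromes P450, conjugation, glucose transfer and sulphation) and are split into toxic products when a leaf is chewed. Transcripts that rise and vanish within hours often encode regulators, such as transcription factors, calcium sensors and ubiquitin ligases, which attach ubiquitin to proteins and so mark them for breakdown.

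Across the members the median level at T2 was 1.08 higher than at T1, 1.40 higher than at T3 and 1.51 higher than at T4 on the log2 scale of the table, against -0.07, -0.03 and -0.02 over all loci. These plates chose the members, so the values describe the choice and carry no test. The scores ran from 0.522 to 1.57 with a median of 0.73, and batch 2 gave the lower score for 66 members and batch 1 for 34. A score above 0 was rare among loci that could have been members, 879 of 9211 (9.54%). In both batches, the lower of the T2 tubes was above every T1, T3 and T4 tube for 78 members, a separation that the choice by score favours. On the scale of the table, T3 and T4 were both below T1 for 69 members and both above it for 24. Other scalings can shift T3 and T4 against T1, and these numbers were not counted under them. The tube count and these counts come from the choosing plates and were not set beside all loci, so they describe the members only. The members just inside the limit were CER1, AT3G14920, CYP71B2, SKS6 and AT1G15710 with scores of 0.522 to 0.529, and the next 5 loci, AT4G32020, RGL2, CYP78A5, MYBR1 and AT5G21100, had 0.513 to 0.521.

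**Figure D1:**
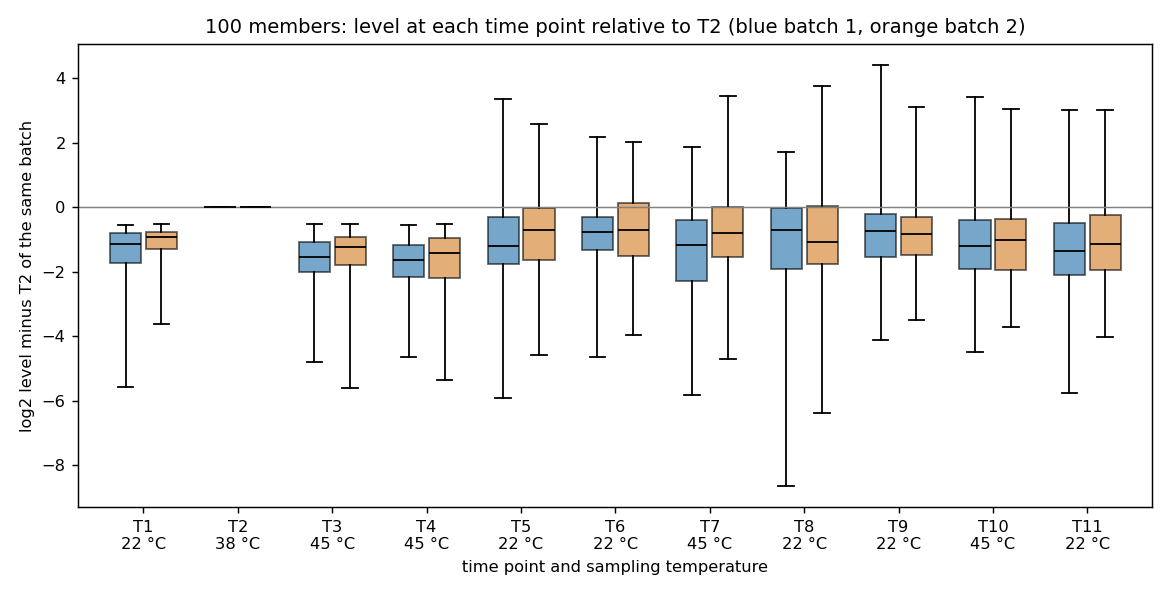
Level of the 100 members in each plate minus their T2 level in the same batch (log2, y axis), by time point and sampling temperature (x axis); boxes hold the middle 50% of members with the median as a line, whiskers the full range, blue for batch 1 and orange for batch 2. T1, T3 and T4 lie below 0 for every member because the rule required it, while from T5 on the whiskers cross 0.

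The description "38 °C only" holds for T1 to T4 and not for the whole series. Over the mean of the batches, 55 members had their highest level of all 11 time points at T2, while 14 had it at T8 and 11 at T5. At least 1 of the time points T5 to T11 was above T2 in both batches for 29 members, and every later plate was below T2 for 37. The choice favours a high T2, and these counts were not set beside all loci. The never-heated plates of day 16 (T9) were a further reference at 22 °C, 7.5 h after dawn. Their mean lay between T1 and T2 for 48 members, at or below T1 for 39, and at or above T2 for 13. Over the members the median of T2 minus T9 was 0.88, less than the 1.08 against T1. The rule favoured a low T1 and did not use T9, so these medians are not alike.

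**Figure D2:**
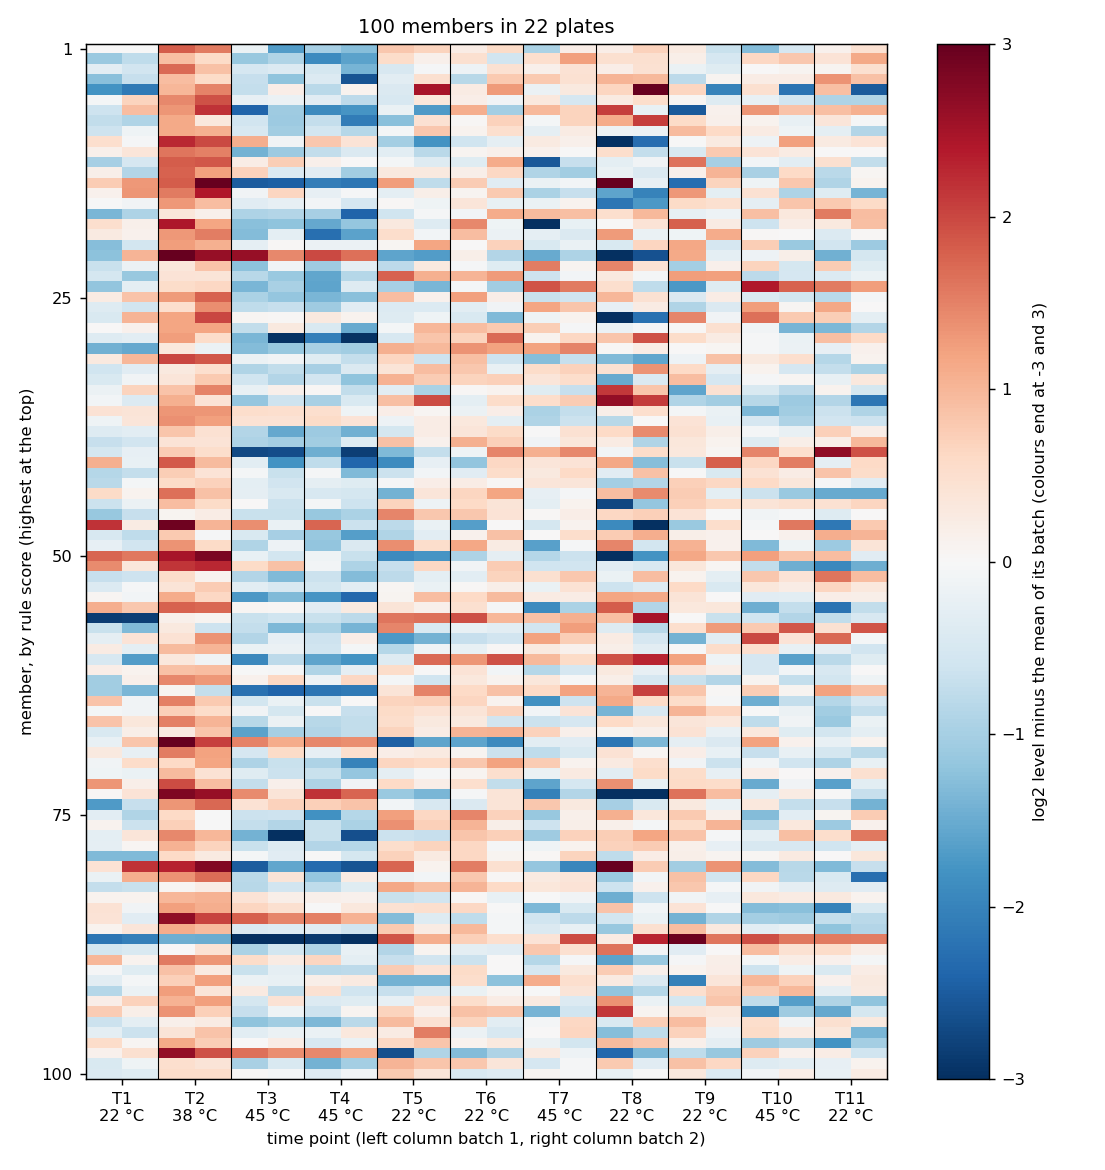
The 100 members (rows, highest score at the top) in the 22 plates (columns, batch 1 left and batch 2 right within each time point), coloured by the log2 level minus the mean of the gene's 11 plates in that batch. The T2 columns are red for nearly all rows and T3 and T4 mostly blue, and single rows such as P5CS1 and MS2 are higher from T5 on than at T2.

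How the table was scaled decided part of the list. Its columns have nearly the same distribution, and the sources used here do not give how that was reached. With the rule applied to the deposited counts, 65 of the members stayed in the top 100 under TMM scaling, 64 under DESeq2 size factors and 29 under library size alone. Relative to the deposited table, library size alone moved the median of all loci to 1.05 for T2 minus T3 and 1.27 for T2 minus T4, and TMM to 0.13 and 0.14. The score stayed above 0 for 95 members under TMM, 92 under DESeq2 size factors and 99 under library size alone. Under TMM the score was negative for LHCA1 (-1.79), GAMMA-TIP (-0.67), GGH2 (-0.19), XTH31 (-0.17) and CER1 (-0.07), so for these genes T2 was not the highest of T1 to T4 on that scale. BRI1, TIP2;2 and HB16 joined them under DESeq2 size factors, at -0.01, -0.11 and -0.01.

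Gene counts per library in units of 1e6 ran from 6.36 to 21.3, with a median of 9.53. Across genes the plates of a time point correlated between batches with r of 0.918 to 0.969. In a principal component analysis scores on the second component (15.9% of the variance) were 82.4 to 94.5 for batch 1 at T7, T10 and T11 and 25.7 to 37.2 for batch 2 there, against 1.6 and -0.26 at T8 and 4.02 and -24.6 at T9. The T11 plates, labelled 22 °C, thus stood with the 45 °C plates of T7 and T10 and apart from the other plates at 22 °C. The 20 listed chaperones other than small heat shock proteins summed to 32500 and 12300 TMM-CPM (counts per 1e6 library counts after TMM scaling) at T11, 47100 and 20900 at T10, 3180 and 2620 at T9, and 7420 and 10000 at T8. On day 12 these chaperones summed to 38600 and 34800 at T2, 262000 and 248000 at T3, and 344000 and 331000 at T4. How these sums bear on the scaling of the members was not tested. The 6 small heat shock proteins summed to 4920 and 1400 at T11, 2810 and 5230 at T8, and 8.36 and 11.4 at T9. The labels' leaf tissue was checked with marker lists on the same scale. All 7 photosynthesis genes were detected in every plate and summed to 49300 and 73300 at T2. The 6 root markers summed to 8.52 and 12.6 there, and the 5 shoot apex markers, of which 4 were detected, to 17.0 and 16.5. Photosynthesis sums were 24600 and 42900 at T1, 128000 and 90400 at T3, and 179000 and 128000 at T4. On the scale of the log2 table the median of these 7 genes went the other way, at -0.86 for T3 minus T2 and -0.64 for T4 minus T2. Apex sums at T3 and T4 were 2.8 to 6.92, against 20.9 and 18.6 at T1. Their part in the members' pattern was not tested.

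Glucosinolate synthesis supplied the largest group with a shared pathway. From a list of 18 genes of that pathway, 15 could have been members and 6 were: MYB29, CYP79F1, CYP79F2, CYP83A1, SOT16 and SOT18. In all, 11 of the 15 had a score above 0 (8 under library size alone). The list was drawn up with earlier results of these plates known and the score is what chose the members, so these counts describe the choice and support nothing. Over the 17 listed loci in the table, the median was 0.68 for T2 minus T1, -2.11 for T3 minus T2 and -2.1 for T4 minus T2. A further 7 members with a place in the pathway were added after the members were seen: UGT74B1, AT2G31790, GSTF11, IPMI1, IMD1, AOP2 and CYP81F4. Over all 13 the T2 levels ran from 3.49 to 8.09, and the median T2 was 1.18 above T1, 1.74 above T3 and 2.13 above T4.

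The 250 bases before the start of 3 of these genes are printed because the neighbours CYP79F1 and CYP79F2 and the next enzyme, CYP83A1, carry the core steps of the pathway. They are from RefSeq, build TAIR10.1, written 5′ to 3′ on the strand of the gene. CYP79F1 (AT1G16410) has chr1:5608432-5608681 on the plus strand, CYP79F2 (AT1G16400) has chr1:5604794-5605043 on the plus strand, and CYP83A1 (AT4G13770) has chr4:7992430-7992679 on the minus strand. Capitals mark exact matches on either strand to 4 strings, the G-box CACGTG, the PBE-box CACATG, the heat shock element of 2 units GAANNTTC and the TATA box TATAAA.
CYP79F1: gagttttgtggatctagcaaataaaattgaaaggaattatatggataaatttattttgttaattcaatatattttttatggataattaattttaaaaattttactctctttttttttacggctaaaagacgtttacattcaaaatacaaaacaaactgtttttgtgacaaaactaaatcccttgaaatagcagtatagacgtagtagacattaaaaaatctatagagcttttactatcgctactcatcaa
CYP79F2: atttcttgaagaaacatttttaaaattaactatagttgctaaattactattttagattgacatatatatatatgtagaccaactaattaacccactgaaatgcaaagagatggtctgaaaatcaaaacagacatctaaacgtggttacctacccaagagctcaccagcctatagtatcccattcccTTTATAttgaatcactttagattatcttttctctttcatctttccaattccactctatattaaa
CYP83A1: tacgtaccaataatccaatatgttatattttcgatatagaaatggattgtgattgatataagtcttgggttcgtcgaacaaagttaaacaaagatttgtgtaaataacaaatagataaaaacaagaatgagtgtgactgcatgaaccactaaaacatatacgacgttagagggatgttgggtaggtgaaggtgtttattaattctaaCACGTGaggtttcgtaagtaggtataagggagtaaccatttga
CYP83A1 held a G-box 43 bases before the start, CYP79F2 a TATA box on the opposite strand 64 bases before it, and the window of CYP79F1 none of the 4. A G-box was in 1 of the 13 promoters of the group, a TATA box in 7, and a heat shock element of 2 units in 0.

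MYB29 (AT5G07690), a MYB transcription factor that switches on the methionine-derived branch, had log2 levels of 3.64 and 3.45 at T1 (batch 1 and batch 2), 5.56 and 4.48 at T2, 1.88 and 2.08 at T3, and 1.61 and 2.12 at T4. Both T2 plates were above every other plate of the day, which the rule favours, and both T3 and T4 pairs were below T1. At the later time points it ran from -0.19 to 4.93, with the lowest value in the batch 1 plate of T7. Its close relative MYB28, on the same list but no member, had means of 5.92 at T1, 5.25 at T2, 1.9 at T3 and 1.8 at T4, so it shared the low levels at 45 °C without the T2 peak.

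CYP79F1, which turns chain-elongated methionine into an aldoxime, stood at 5.96 and 6.11 at T1, 7.84 and 7.34 at T2, 6.11 and 5.93 at T3, and 5.98 and 4.93 at T4. CYP79F2, its tandem copy with a preference for longer chains, stood at 3.49 and 2.52, then 4.58 and 3.29, then 2.66 and 1.95, then 2.44 and 1.88. On the scale of the log2 table, T1 and T3 of CYP79F1 were nearly level and T2 stood out. In TMM-CPM its T3 plates, at 122 and 96.1, were above its T1 plates, at 62.1 and 74.9. In CYP79F2 the T3 and T4 plates were below T1 of their batch on both scales. The 2 genes lie next to each other on chromosome 1, between 5605044 and 5612064, and are close copies, so reads may have been split between them and their separate levels are uncertain.

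CYP83A1, which oxidises those aldoximes, had the highest T2 level of the group (not corrected for transcript length), with 6.99 and 7.20 at T1, 8.21 and 7.97 at T2, 6.52 and 5.98 at T3, and 6.31 and 6.08 at T4. In TMM-CPM it had 112 and 145 at T1, 173 and 110 at T3, and 145 and 112 at T4. UGT74B1 (AT1G24100), which adds the glucose, had the highest score of the group, 1.287. Its levels were 4.96 and 4.79 at T1, 6.97 and 6.24 at T2, 4.77 and 4.95 at T3, and 4.75 and 3.95 at T4. In both genes the T2 plates did not overlap those of the other time points of day 12, which the rule favours.

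The last core step is sulphation. SOT16 (AT1G74100), which acts mainly on indole and aromatic precursors, had 4.88 and 5.08 at T1, 5.94 and 5.78 at T2, 3.09 and 3.85 at T3, and 3.05 and 2.82 at T4. SOT18 (AT1G74090), which acts on aliphatic precursors, had 4.75 and 5.09, then 6.34 and 6.22, then 5.55 and 5.13, then 5.58 and 4.47. After T2, SOT16 was below its dawn level at T3 and T4 in both batches, and SOT18 was above it in 3 of 4 plates. These genes too are neighbours on chromosome 1, between 27862814 and 27865694, and similar in sequence, so their split of reads is uncertain. The side-chain genes IPMI1 and IMD1, subunits or enzymes of the methionine elongation cycle, had T2 minus T4 of 3.42 and 1.76. CYP81F4 (AT4G37410), which modifies indole glucosinolates, had 3.29 and 2.41 at T1, 4.09 and 3.98 at T2, 1.83 and 3.29 at T3, and 2.19 and 2.28 at T4.

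**Figure D3:**
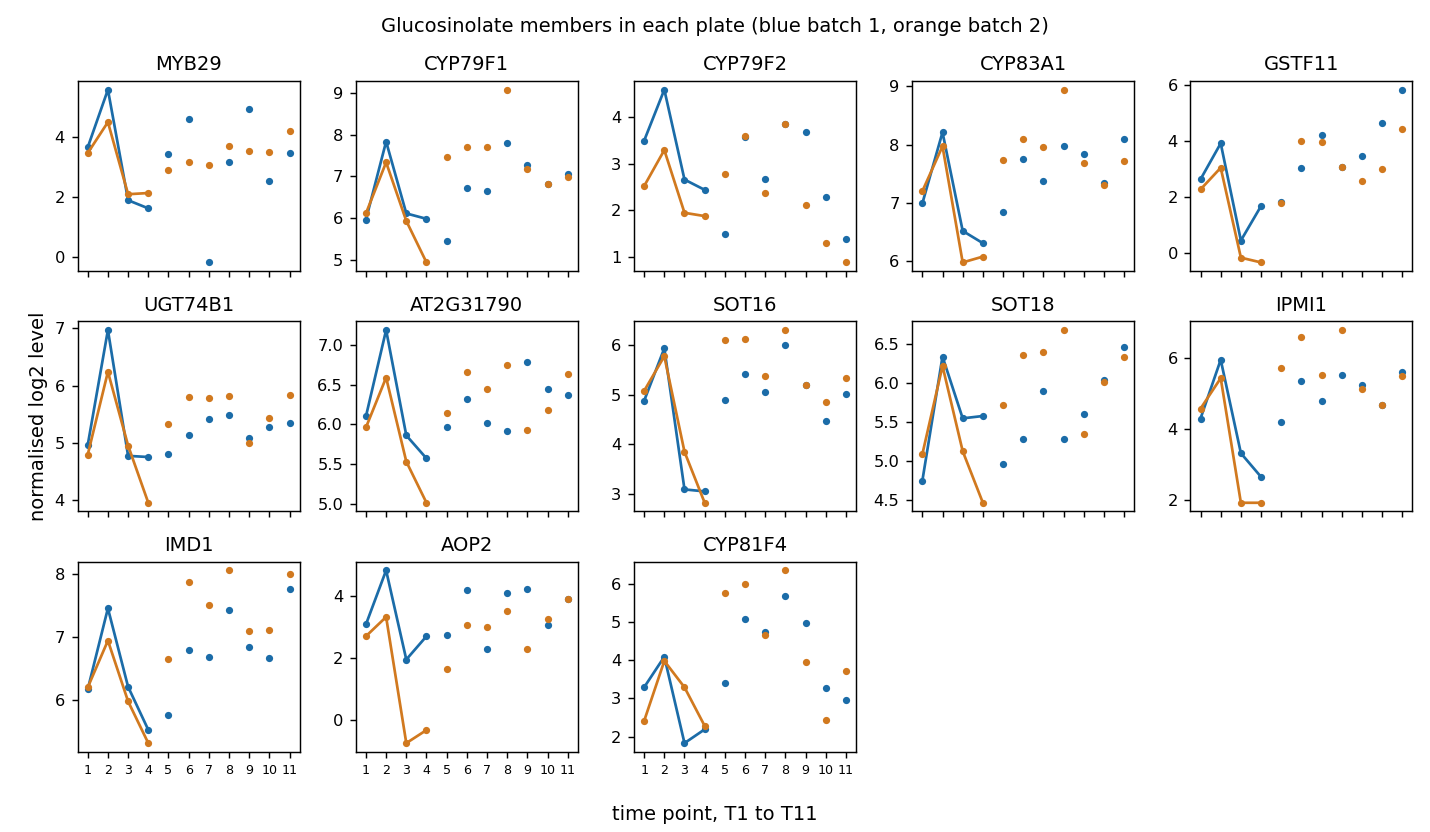
Normalised log2 level (y axis) of the 13 glucosinolate members in each plate at T1 to T11 (x axis), blue for batch 1 and orange for batch 2, with lines joining T1 to T4 of a batch. T2 is the highest of T1 to T4 in every panel because the rule required it, and in GSTF11, IMD1 and CYP81F4 at least 7 of the 14 later plates are above T2 of their batch.

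Genes of hormone signalling and synthesis formed a group of 10, drawn up after the members were known, with a median T2 of 0.88 above T1 and 1.69 above T3. MYC2 (AT1G32640), the bHLH transcription factor at the centre of jasmonate signalling, had a score of 1.345, next to the highest of all. It stood at 3.01 and 3.59 at T1, 5.03 and 4.94 at T2, 3.00 and 3.45 at T3, and 2.23 and 2.74 at T4. Both T2 plates were above all other plates of the day, which the rule favours. From T5 on MYC2 ran from 3.77 to 5.58, with 3 of 14 plates above T2. Of the 18 jasmonate genes listed, 8 could have been members and MYC2 was the one that was.

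Ethylene was represented by ACS6 (AT4G11280), an enzyme that makes the ethylene precursor, and by ERF4 (AT3G15210), a repressor of ethylene-responsive genes. ACS6 had 2.77 and 3.93 at T1, 4.50 and 4.84 at T2, 2.57 and 3.26 at T3, and 2.37 and 3.84 at T4. ERF4 had 3.73 and 3.67 at T1, 4.63 and 5.62 at T2, 3.37 and 3.55 at T3, and 3.06 and 3.90 at T4. In both, T2 was highest within each batch, as the rule required, and the margin of ACS6 in batch 2 was 0.905. ERF4 was the one member from 26 listed early stress factors, of which 4 could have been members. ESE3 and AT1G22190 encode further factors of the same AP2/ERF family. Brassinosteroid genes were BRI1, the receptor, whose T2 was 0.69 above T1, and BR6OX2, an enzyme of the last steps of synthesis. The score of BRI1, T2 minus the highest of T1, T3 and T4, was -0.01 under DESeq2 size factors. CKX7 degrades cytokinin, and AIB is a bHLH factor induced by abscisic acid.

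The highest score of all members, 1.57, belonged to AT5G41400, which encodes a protein with a RING/U-box domain of the kind found in ubiquitin ligases. It had 2.62 and 2.91 at T1, 4.41 and 4.48 at T2, 2.39 and 1.25 at T3, and 1.61 and 1.64 at T4. None of its 14 later plates reached T2. The ubiquitin ligase PUB26 (AT1G49780) had 2.56 and 2.98, then 4.03 and 4.13, then 0.99 and 1.55, then 1.68 and 2.2. Its near-copy PUB25, RDUF1 and AT1G20823 completed a group of 5, in which T2 was 0.96 to 1.83 above T1 and a median of 2.57 above T3. Reads may be split between PUB25 and PUB26. None of the 5 had any later plate above T2 of its batch.

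CAF1a (AT3G44260), a subunit that shortens the poly(A) tails of messenger RNAs, had 2.79 and 3.82 at T1, 3.86 and 5.67 at T2, -0.46 and 0.06 at T3, and -0.03 and 0.34 at T4. Its mean difference of T2 over T3 was 4.96, the largest among the members, while the difference over T1 was 1.45. DIC2 (AT4G24570), a mitochondrial dicarboxylate carrier, had the largest difference of T2 over T4, 5.0, with 1.83 and 3.88 at T1, 3.69 and 4.48 at T2, -1.10 and 0.16 at T3, and -0.94 and -0.88 at T4. Both genes were low in all plates at 45 °C on day 12, below the dawn plates. Few counts lie behind these levels: over both plates CAF1a had 10 at T3 and 15 at T4, and DIC2 had 9 and 2. The size of the differences of T2 over T3 and T4 is thus uncertain in both. CYCD1;1, a D-type cyclin, and LGO, an inhibitor of cyclin-dependent kinases, stood 1.17 and 0.70 above T1 at T2.

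Calcium sensing was led by AT4G27280 (score 1.236), an EF-hand protein, with 2.76 and 4.82 at T1, 4.71 and 6.06 at T2, 0.99 and 2.83 at T3, and 1.47 and 2.14 at T4. Batch 2 was higher than batch 1 at all 4 time points, and T2 was the highest within each batch, as the rule required. The EF-hand genes AT2G41410 and MSS3, the kinase CRK1 and the receptor-like kinase RLK made up the other 4 of this group. Transcription factors outside the hormone pathways included the TCP gene AT1G35560 (score 1.237), with 2.92 and 3.56, then 4.42 and 4.80, then 2.72 and 2.72, then 2.63 and 2.12. BBX16 (AT1G73870), a B-box factor, had the largest difference of T2 over T1, 3.57, and differed between batches at dawn, at 1.15 in batch 1 and 4.99 in batch 2.

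Several members move solutes or water across membranes. SAG29 (AT5G13170), a sugar transporter of the SWEET family, had 4.51 and 1.64 at T1, 7.29 and 5.25 at T2, 5.59 and 3.97 at T3, and 5.48 and 3.87 at T4. Its later plates split by batch at T9 to T11, with 6.78 to 7.19 in batch 1 and 1.24 to 1.76 in batch 2. AT2G40460, a major facilitator, had 3.42 and 3.18, then 5.16 and 4.38, then 3.54 and 2.27, then 3.47 and 2.45. TIP2;2 and GAMMA-TIP are water channels of the vacuole membrane. GAMMA-TIP stood at 10.34 and 10.50 at T2, above 8.09 and 8.12 at T1, but its score was -0.67 under TMM scaling, and that of TIP2;2 was -0.11 under DESeq2 size factors.

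Of the cell wall group of 9, AT1G23205, an inhibitor of pectin methylesterase or invertase, had the highest score, 1.067. It stood at 2.33 and 4.01 at T1, 3.77 and 5.08 at T2, 2.1 and 3.34 at T3, and 1.97 and 2.64 at T4. XTH31 (AT3G44990), a xyloglucan-modifying enzyme, was the one member from 16 listed genes of cell wall loosening, 11 of which could have been members. It had 4.77 and 3.17 at T1, 7.76 and 6.09 at T2, 6.96 and 5.40 at T3, and 6.96 and 5.22 at T4, so it stayed above dawn at 45 °C, and its score flipped to -0.17 under TMM scaling.

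Auxin genes were 5: AIR12 and AIR3, named for their induction by auxin in root cultures, the efflux carrier PIN7, the transcription factor MYB77 and AT5G18030, a SAUR-like gene. AT5G18030 had 0.76 and 1.21 at T1, 3.53 and 3.41 at T2, 2.14 and 1.2 at T3, and 2.91 and 2.54 at T4, and it has near-identical neighbours that could share its reads. It was the one member from 22 listed auxin genes, 7 of which could have been members. Another 4 genes among the 15 highest scores were CB5-C, a cytochrome b5, and the uncharacterised AT5G66580, AT1G20070 and AT3G50340. CB5-C had 2.46 and 3.53 at T1, 4.64 and 4.81 at T2, 3.04 and 3.03 at T3, and 3.31 and 1.65 at T4. T2 of the 3 uncharacterised genes lay between 3.53 and 4.57 in all plates. The highest of their T1, T3 and T4 plates was 3.20, a gap that the rule favours.

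Some members of primary metabolism stood higher later than at T2. P5CS1 (AT2G39800), the rate-limiting enzyme of proline synthesis, had 4.76 and 5.34 at T1, 5.47 and 5.90 at T2, 3.81 and 3.55 at T3, and 4.06 and 4.19 at T4. All 14 later plates, at 7.18 to 9.88, were above both T2 plates, the never-heated plates T9 (9.88 and 9.00) included. It was the one member from 18 listed genes of abscisic acid and dehydration response, 8 of which could have been members. MS2 (AT3G03780), a methionine synthase, behaved alike, with 7.84 and 7.14 at T2 and 7.88 to 9.91 from T5 on. These were the 2 members with every later plate above T2 of its batch, and 16 members had at least 7 of 14 there, among them FUM2, the cytosolic fumarase, with 10. Both P5CS1 and MS2 have close copies in the genome whose reads may mix with theirs. LHCA1, a light-harvesting protein of photosystem I and the member with the highest level, had 12.29 and 12.18 at T2 in the table and a score of -1.79 under TMM scaling.

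Some lists held no member. Among them were small heat shock proteins (6 of 6 could have been members), other chaperones (20 of 20) and heat stress transcription factors (6 of 20). Others were the circadian clock (16 of 25) and the unfolded protein response (15 of 17). Since 100 of 9211 eligible loci became members, lists of this size would hold few or none at that share. The small heat shock proteins stood a median of 9.67 above T1 at T2 and 2.74 higher again at T3. The rule does not allow this. By words in the product names, cytochromes P450 made up 7 of the members (7.0%) and 54 of the 9211 eligible loci (0.586%). Transcription factors were 9 (9.0% against 4.76%), cell wall proteins 6 (6.0% against 1.37%) and ubiquitin ligases or F-box proteins 5 (5.0% against 3.31%). Proteins of RNA binding, helicases and ribosome biogenesis were 0 of 100 (6.90% of eligible loci).

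The members had few introns. In the longest annotated transcript of each gene, 38 of the 100 consisted of a single exon, against 892 of 9205 eligible loci with annotated exons (9.69%). The median number of exons was 2 against 6, while transcript length was similar, with medians of 1715 and 1856 bases. When the rule was applied to the counts, single-exon genes were 46.0% of the top 100 under TMM, 49% under DESeq2 size factors and 34.0% under library size alone. Gene structure took no part in the choice of members, and this property was looked up after they were known. Of the members, 3 pairs lay within 3 places of each other in the gene order: CYP79F1 with CYP79F2, SOT18 with SOT16, and AT2G40460 with ASG8.

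The 250 bases before the start were searched on both strands, and no difference in these shares was tested. The G-box CACGTG was in 7.0% of members and 7.91% of eligible promoters, GAANNTTC in 8.0% and 8.94%, and the TATA box TATAAA in 45.0% and 45.7%. The evening element AAAATATCT was in 3.0% and 2.34%, and the auxin response element TGTCTC in 8.0% and 10.3%. A heat shock element of 3 units was in 0 of 100 members and 0.437% of eligible promoters. The site II element TGGGCC was in 11.0% and 19.8%, the W-box TTGACC in 7.0% and 11.8%, the abscisic acid response core ACGTGTC in 2.0% and 4.46%, and the GCC-box GCCGCC in 0 of 100 and 1.9%. Strings may overlap, and a match is not a measured binding site.

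The plates of T5 to T11 took no part in choosing the members, and changes between them were tested with edgeR's quasi-likelihood test over 20621 genes, with all 100 members among them. The verbs rose and fell are kept for a Benjamini-Hochberg adjusted p under 0.05, and errors of log2 changes are standard errors of the fit. On simulated counts for T10 against T9, the test recovered 98.4% of 8-fold, 56.1% of 4-fold and 3.08% of 2-fold changes. Changes of 2-fold were thus rarely recovered there. The simulation gave every gene the common spread and no batch effect, so it was simpler than the measured counts. Recovery in the measured counts was not tested, and OPT7 was called in T8 against T11 at a log2 change of -0.69. In T7 against T6, 0 of the 6 small heat shock proteins passed, at a list median of 4.12. The simulated shares are thus not those of the measured counts.

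The first comparison asked what a sudden 45 °C does in plants never heated before (T10 against T9). ACS6 rose, from 6.53 and 20.3 TMM-CPM at T9 to 123 and 83.0 at T10. All T10 plates were above all T9 plates, and the log2 change was 2.89 ± 0.54 (adjusted p = 0.0341, edgeR), with 4.14 in batch 1 and 2.01 in batch 2. AIR12 (AT3G07390) fell, from 30.0 and 46.8 to 7.52 and 16.0 TMM-CPM, without overlap (-1.76 ± 0.33, adjusted p = 0.0347, edgeR). AT5G47050, an SBP family protein, fell from 6.74 and 5.92 to 2.60 and 2.77 (-1.24 ± 0.27, adjusted p = 0.0462, edgeR). These 3 of 100 stand beside 2.7% of all genes tested (1.14% higher and 1.56% lower), so the share of members that changed was near that of all genes. The median change was -0.17 over members and -0.04 over all genes. None of the 3 calls was kept when any 1 of the T9 or T10 plates was left out, and almost no gene of any kind passed there. The log2 changes then were 2.12 to 4.16 for ACS6, -1.97 to -1.57 for AIR12 and -1.32 to -1.14 for AT5G47050. DESeq2 called 11 members, beside 12.8% of all genes.

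In acclimated plants the same shock (T7 against T6) moved no member past the threshold in edgeR, beside 1.61% of all genes. At an unadjusted p under 0.05 there were 22 members beside 25.6% of all genes. DESeq2 called 12 beside 12.8%, and limma called 2 on the log2 table beside 3.02%. Under library size alone 16 passed beside 15.3%, so the shares of members were near those of all genes. ACS6 again had the smallest p of the members, with a log2 change of 2.43 ± 0.52 and an adjusted p of 0.0505 (edgeR); AIR12 had -1.41 ± 0.32 and an adjusted p of 0.0548 (edgeR). Whether the response differed between acclimated and non-acclimated plants was tested as the difference of the changes. By edgeR 0 members and 0% of all genes passed. No member and 157 genes (0.761%) had an unadjusted p under 0.05, and DESeq2 called 0 members. For ACS6 and AIR12 the difference was -0.46 ± 0.71 (adjusted p = 1, edgeR) and 0.35 ± 0.45 (adjusted p = 1, edgeR).

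The next comparisons asked whether acclimation left a trace in plants back at 22 °C. Against the never-heated T9 plates, edgeR called 0 members 2 days after the ramp (T5, 0.126% of all genes) and 0 members 4 days after it (T6, 0.0097%). The 6 small heat shock proteins had list medians of 7.6 at T5 and 5.61 at T6, and 0 of them passed. Their sums were 964 and 3320 TMM-CPM at T5, 72.8 and 887 at T6, and 8.36 and 11.4 at T9. Large changes can thus be missed here, and 0 calls do not show that no trace was left. T5 was harvested on day 14 and T9 on day 16, so in that comparison past heat and age cannot be told apart, while T6 and T9 share their day. At an unadjusted p under 0.05 there were 16 members for T5 and 12 for T6, beside 9.66% and 5.61% of all genes. DESeq2 called 7 and 1, beside 2.52% and 0.515%. The smallest p at T5 belonged to AT4G33666, an uncharacterised gene, with -2.75 ± 0.51 (adjusted p = 0.0762, edgeR). T10, T5, T6 and T11 are all compared with the same T9 plates, so their values share that reference.

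Heat-shocked plants without acclimation were also compared with T9 after 2 days (T11, day 18 against day 16, so the shock and age cannot be told apart). The T11 plates stood with the 45 °C plates as given above. Against T9, 5 of the 6 small heat shock proteins and 10 of the 20 other chaperones rose, with list medians of 8.67 and 4.01. The part of this in the members' changes was not tested. Among the members 3 fell and none rose, beside 2.4% of all genes called (0.955% higher and 1.44% lower). AT1G10380, a putative membrane lipoprotein, went from 7.63 and 4.35 TMM-CPM to 1.57 and 1.26 (-2.04 ± 0.41, adjusted p = 0.0397, edgeR). CYP709B3, a cytochrome P450, went from a mean of 56.9 ± 1.42 (SD, n = 2) to 20.8 ± 8.08 (-1.52 ± 0.32, adjusted p = 0.0429, edgeR). AT3G14920, a predicted amidase acting on N-linked sugars, went from 12.6 and 14.6 to 3.24 and 8.34 (-1.34 ± 0.29, adjusted p = 0.0483, edgeR). In all 3 genes the T11 plates were below both T9 plates. No member passed when any 1 of the T9 or T11 plates was left out, and few genes of any kind did. The log2 changes then were -2.24 to -1.81 for AT1G10380, -1.82 to -1.18 for CYP709B3 and -1.8 to -0.98 for AT3G14920. DESeq2 called 16, beside 11.4% of all genes.

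The last comparison set acclimated against non-acclimated plants 2 days after the shock (T8 against T11), and here 27 members passed, 15 higher and 12 lower at T8, beside 22.6% of all genes (11.5% higher and 11.1% lower). The median change was 0.29 over members and 0.02 over all genes. Under library size alone 26 were higher and 7 lower, beside 27.9% of all genes called and with the median of all genes at 0.55. Because the T11 plates stood with those of 45 °C, T8 was also set against the never-heated T9, with the T11 plates left out of the fit, a choice made after seeing the data. There 15 members passed, 3 higher and 12 lower, so that most were lower and not higher, beside 11.5% of all genes (4.66% higher and 6.86% lower). These plates are of day 18 and day 16, and 13 of the 15 members had passed in the same direction against T11. Both comparisons use the same T8 plates, which favours such overlap, so it is no separate support. AIR3, AT3G14920 and XTH31 were the 3 higher ones, and the 6 members with the largest falls against T11 were all lower. AIR3 (AT2G04160), a subtilisin-like protease, was higher, at 288 and 241 TMM-CPM in T8 against 37.7 and 16.9 in T11 (3.28 ± 0.52, adjusted p = 0.00523, edgeR). AT3G14920 was higher as well, at 21.7 and 29.1 against 3.24 and 8.34 (2.22 ± 0.30, adjusted p = 0.00313, edgeR). Of the 6 members with the largest rise and the 6 with the largest fall, these 2 passed whichever plate was left out.

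Among glucosinolate genes CYP79F2 rose, at 19.1 and 18.6 TMM-CPM in T8 against 3.41 and 2.21 in T11 (2.77 ± 0.55, adjusted p = 0.00952, edgeR). CYP81F4 had 61.4 and 95.8 against 9.63 and 16.4 (2.60 ± 0.71, adjusted p = 0.0281, edgeR). GSTF11, a glutathione transferase, was lower at T8, at 11.6 and 11.3 against 74.6 and 26.1 (-2.02, adjusted p = 0.0207, edgeR). The other 10 members of the group did not pass, CYP79F1 with 0.78 ± 0.56 and MYB29 with -0.27 ± 0.79 included. Against T9, CYP79F2, CYP81F4 and GSTF11 had 0.76, 1.39 and 0.02 and did not pass. On the list of 18, of which 17 were tested, 3 were higher (CYP79F2, MYB51 and CYP83B1), 0 lower, and the median was 0.30.

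DIC2 (3.52 ± 0.97) and PAO4 (2.34 ± 0.61), a polyamine oxidase, were also among those most above T11. DIC2 had 39.9 and 7.62 TMM-CPM in T8 against 1.51 and 2.41, and PAO4 had a mean of 70.0 ± 50.1 (SD, n = 2) against 15.5 ± 8.63. In both the change was larger in batch 1 (4.33 and 3.42) than in batch 2 (1.48 and 0.67), and without the batch 1 plate of T8 the changes were 1.84 and 0.91 and did not pass. Against T9 they were 1.52 and 0.98 and did not pass either. Other members that were higher included XTH31 (1.97) and BR6OX2 (1.2).

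Lowest relative to T11 was the SAUR-like gene AT5G18030, with 0.0564 and 0.152 TMM-CPM in T8 (6 counts in all) against 2.27 and 1.30 (-4.12 ± 0.68, adjusted p = 0.00568, edgeR). LHCA1 had 317 and 887 against 4230 and 6110 (-3.17 ± 0.58, adjusted p = 0.00729, edgeR). CYCD1;1 had a mean of 3.25 ± 1.05 (SD, n = 2) against 16.5 ± 1.32 (-2.37 ± 0.40, adjusted p = 0.00601, edgeR). AT1G60590, a pectin lyase-like protein (-2.90 ± 0.64), AT5G66580 (-2.83 ± 0.55) and AT4G33666 (-2.59 ± 0.52) were the other members with the largest falls. The T8 plates lay below both T11 plates in all 6. Photosynthesis markers moved the same way: their sum was 5180 and 11700 at T8 against 37100 and 40700 at T11, and 6 of 7 passed lower. Of the auxin list 11 of 22 were lower, and of the cell cycle list 7 of 9. The part of these shifts in the members' changes was not tested. Without the batch 1 plate of T8, 5 members passed beside 3.77% of all genes. Without the T11 plate of batch 1 it was 8 (3 higher and 5 lower) beside 6.83%, and without that of batch 2 it was 12 (4 higher and 8 lower) beside 7.04%.

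**Figure D4:**
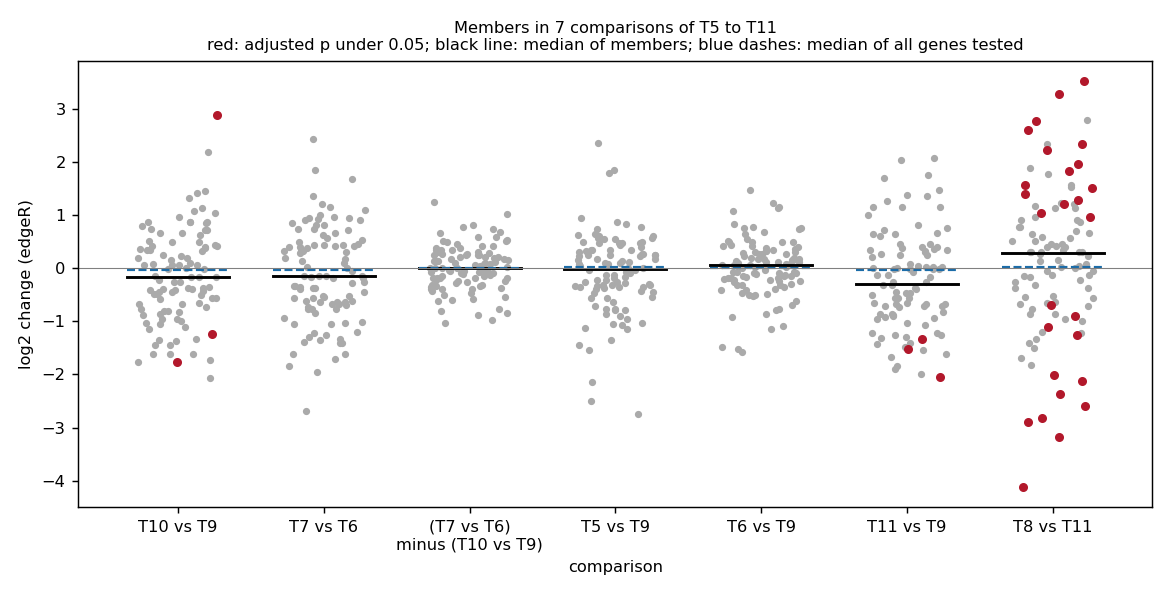
Fitted log2 change (y axis) of the 100 members in the 7 tested comparisons of T5 to T11 (x axis); each point is a member, red where the adjusted p is under 0.05, the black line is the members' median and blue dashes the median of all genes. Red points number 3 in T10 against T9, 3 in T11 against T9 and 27 in T8 against T11, and none elsewhere.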

How the data were processed

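Polyadenylated RNA of 43 libraries was analysed. The deposited counts are whole reads per locus in 1 table per library, which the authors made on the TAIR10 build. The tools were HTSeq, SAMtools, Bowtie2 2.1.0.0, TopHat2 2.0.14 and bcl2fastq 1.8.4, per the submitters' processing notes. The sources used here give no strand setting for counting, so overlapping antisense loci may share reads. In each library 5 summary lines, 11.7% to 45.3% of records, were left out. The authors' deposited table of normalised log2 values chose the members and gave the log2 levels. The sources used here do not say how it was normalised, and 1 of its columns matched no sample and was not used.

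Counts of a plate's tubes were summed. The test was edgeR 4.0.16 (R 4.3.3) on the 14 plates of T5 to T11 only, with TMM factors from all 22 plates, a smallest count of 10 (filterByExpr), a batch term and Benjamini-Hochberg adjustment (6 residual degrees of freedom, common biological coefficient of variation 0.327). The batch term blocks the plates, since the labels say which plates share a batch. Where nothing more says that plates were grown apart, p-values measure the spread between these plates. Plates of T1 to T4 entered no test. In simulated counts for T10 against T9, with the common spread for every gene and no batch effect, the test made 7 false calls over 20166 genes. Alternatives were DESeq2 1.42.0 and its size factors, library size, no filter, all 22 plates, no batch term, limma 3.58.1 on the log2 table, 1 plate left out and, added after seeing the data, T9 in place of T11 as the reference of T8.

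Members and lists were chosen with earlier results of these data known. The role groups and the exon counts came after the members were seen. Given in full are the 15 highest scores, members on a pathway list, and up to 6 called members per direction with the largest change. Gene names, exons and promoters are from RefSeq TAIR10.1, since the files hold no coordinates. Precision is limited by n = 2 plates.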

Additional observations from a re-analysis of the deposited data

How the results depend on the processing

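The members themselves depended on the settings. Of the 100, 60 stayed in the top 100 with no minimum at T2 and 43 with a T2 of 5 or more. Leaving out 1 tube per plate of a time point kept 61 to 98, fewest for T2 (61 and 63). On counts, 65 stayed under TMM, 64 under DESeq2 size factors and 29 under library size alone; the mean of the batches in place of the lower kept 71.

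Numbers of members called also moved. DESeq2 called 11 in T10 against T9, 12 in T7 against T6, 7 in T5 against T9, 1 in T6 against T9 and 16 in T11 against T9, where edgeR had 3, 0, 0, 0 and 3. Over all genes DESeq2 called 12.8%, 12.8%, 2.52%, 0.515% and 11.4%, and edgeR 2.7%, 1.61%, 0.126%, 0.0097% and 2.4%, so calls became more frequent over all genes too. With all 22 plates in the fit, which lets the choosing plates in, the calls were 7, 6, 3 and 13 for T10, T7, T5 and T11, beside 8.32%, 8.35%, 0.447% and 6.81% of all genes. Library size alone put the median of all genes at -0.69 (T10), -0.70 (T7) and -0.41 (T11), from -0.04, -0.03 and -0.04, and gave 18 calls (1 higher, 17 lower, against 1 and 2), 16 (0 and 16) and 8 (0 and 8), beside 17.2%, 15.3% and 4.61% of all genes. For T8 against T11 it put that median at 0.55, from 0.02, and gave 33 calls (26 higher, 7 lower, against 15 and 12), beside 27.9%. For T7, 1 member passed with DESeq2 size factors and 1 without the filter, beside 1.74% and 1.29%. On the log2 table limma called 2 for T7 and 1 for T5, beside 3.02% and 0.451%. Without the replicate block (batch term left out) the calls were 0, 0 and 16 for T10, T11 and T8 against T11, beside 0.301%, 0.218% and 11.6%, and 0 as before for T7, T5, T6 and the interaction. Leaving out 1 plate gave no member call in T10 and T11 each time, and few calls over all genes too. In T8 against T11 fewer members passed than in the main fit, and the majority turned to lower without either T11 plate. With T9 in place of T11 as the reference of T8, chosen after seeing the data, the majority also turned to lower (15 calls, 3 higher and 12 lower, beside 11.5%). The cause was not tested, except that fewer plates were fitted where plates were left out. The 18 named changes kept their sign under all settings run.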
